A study of Danio rerio with 6 samples.

Results

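Of the 29 array targets for cell cycle, DNA replication and DNA repair genes measured in whole zebrafish larvae, 2 were called after 5 Gy. This was 6.90%, against 4.04% of all targets on the array. The target for cdk4 was called higher and that for parp6a lower, and the other 27 did not pass the test. The kinase gene cdk4 was 2.37-fold higher in the irradiated pools (log2 ratio 1.24, SE 0.531, 3 pools per group), and the ADP-ribosyltransferase gene parp6a was 1.59-fold lower (log2 ratio -0.66, SE 0.289). Both calls rest on an unadjusted p, and after adjustment over the array neither passed (limma adjusted p = 0.905 for both). The largest differences that did not pass were in fanca (2.27-fold higher), cdk5r1b (1.86-fold lower), cdkal1, xrcc4 and xrcc5 (1.60-, 1.59- and 1.57-fold higher). The 29 targets represent 28 genes, with 2 targets for cdc42, of 37157 targets on the array, and they were found by a rule on gene symbols that takes in no measured value. A target entered if it had a RefSeq mRNA identifier and its zebrafish symbol began with a name on a list. The list held cyclins A to H, cyclin-dependent kinases, numbered cdc genes, pcna, and origin, helicase, GINS and clamp loader subunits. It also held the polymerase names pola, pold, pole and polk, topoisomerases, rrm, bub, kif11, and mitotic and checkpoint kinases. The repair names were rad, xrcc, brca, fanc, mismatch repair, ligase and parp. Entry rested on the symbol alone, which does not show that a gene such as parp6a acts in repair. Only 2663 targets carried a zebrafish symbol, and for pcna, mcm2, mcm3, mcm4, mcm6, mcm7, ccnb1, cdk1, cdk2, plk1, brca2, top2a, rrm1, rrm2, chek1, bub1 and kif11 the number of symbol-bearing targets was 0, so these genes were not analysed here.

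Before a cell copies its DNA, the origin recognition complex loads the MCM helicase at replication origins, and cyclins with their kinases then start replication and later carry the cell into mitosis. Ionizing radiation breaks DNA. Breaks are rejoined by end joining, which uses the Ku proteins and Xrcc4, or are repaired from the sister copy by homologous recombination, while the Fanconi proteins clear crosslinks that block replication. In a larva the genes of replication and mitosis are mainly active where cells still divide. Such places include the growth zones of the brain and retina, the gut and the blood-forming tissue.

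The control group was 3 pools of mock-irradiated larvae (0 Gy), and the 5 Gy group was 3 pools given 5 Gy from a Co-60 source at 26 hours post fertilization (hpf). All 6 pools were wild-type AB larvae collected whole at 120 hpf, with 50 larvae in each pool, and the methods state that the replicates came from separate clutches. The labels do not say whether control and 5 Gy pools of the same number share a clutch. Each pool was hybridised to 1 one-colour array with 385000 probes, and 22 of the 29 targets had 12 probes. Values are log2 intensities per target, and a target was taken as altered at a limma p under 0.05 with at least a 1.5-fold difference (0.585 on the log2 scale), the thresholds of the study's methods.

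Control replicate 3 stood apart from its group. Over all targets it correlated with 5 Gy replicates 3 and 1 at r = 0.987 and 0.957, and with control replicates 1 and 2 at 0.897 and 0.905, while those correlated with each other at 0.977. In the 5 Gy group, replicate 2 correlated with replicates 1 and 3 at 0.912 and 0.920, and those with each other at 0.953. For several members, such as cdk4, cdkal1, fanca, xrcc4 and xrcc5, results are also given without control replicate 3. A whole larva holds many tissues, so fewer cells of a type and less RNA per cell cannot be told apart. Of the marker lists, skeletal muscle (5 of 14 listed genes measured), lens (7 of 11) and neuron markers (3 of 12) were all above the dimmest 25% of targets, and 0 of the 12 liver and 0 of the 6 germ cell markers had a target with a symbol.

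Of all 37157 targets, 426 were higher and 1074 lower in the 5 Gy pools, which is 4.04% called in either direction. Among the 29 cell cycle and repair targets 1 was higher and 1 lower, or 6.90%, against 1.15% of all targets called higher and 2.89% lower. After Benjamini-Hochberg adjustment over all targets the count was 0 in limma, among these genes (smallest adjusted p = 0.905) and over the whole array, although 2 of them and 1500 targets had an unadjusted p under 0.05. With the replicate number as a block, which sets each 5 Gy pool against the control pool of its number, 3 passed, namely cdk4 and fanca higher and cdk5r1b lower (10.3%), while over the array 3272 targets or 8.81% passed, 3.61% higher and 5.19% lower. With the block the adjusted p was under 0.05 in 3 targets of the array (0.00807%) and in 0 of the 29. With each array centred on its median the calls were 2 higher, cdk4 and xrcc4, and 0 lower. Of all 37157 targets 1449 were then called, 520 higher and 929 lower. The t-test of the methods, run on the values combined here, called 1, parp6a, against 1.53% of all targets. The groups did not overlap in 3 of the 29 targets (10.3%), xrcc4 and xrcc5 higher and parp6a lower, and the same held for 7.49% of all targets, 2.78% higher and 4.7% lower.

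The count moved with the pools that entered. Without control replicate 3, 5 of the 29 passed, all higher (cdk4, cdkal1, fanca, xrcc4 and xrcc5), and 19.2% of all targets passed. Without 5 Gy replicate 3 the count was 2, cdk5r1b and parp6a lower, against 4.13% of all targets, and without 5 Gy replicate 1 it was 1, cdk4, against 4.5%. Without control replicate 1, control replicate 2 or 5 Gy replicate 2 it was 0, where 0.829%, 0.834% and 2.41% of all targets passed. Without both pools numbered 3, a setting added after the values were seen, 6 of the 29 and 15% of all targets passed. Without the dimmest 25% of targets, cdk4 alone passed, against 4.14% of the targets left.

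Sizes were spread around a small positive centre. The median log2 ratio of 5 Gy over control was 0.07, with 18 targets above 0 and 11 below, and over all targets it was -0.03, with 46.6% above 0. Among the targets with a zebrafish symbol, 54.1% lay above 0. A difference of at least 1.5-fold was reached by 7 of the 29 (24.1%), compared with 19.8% of all targets.

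**Figure D1:**
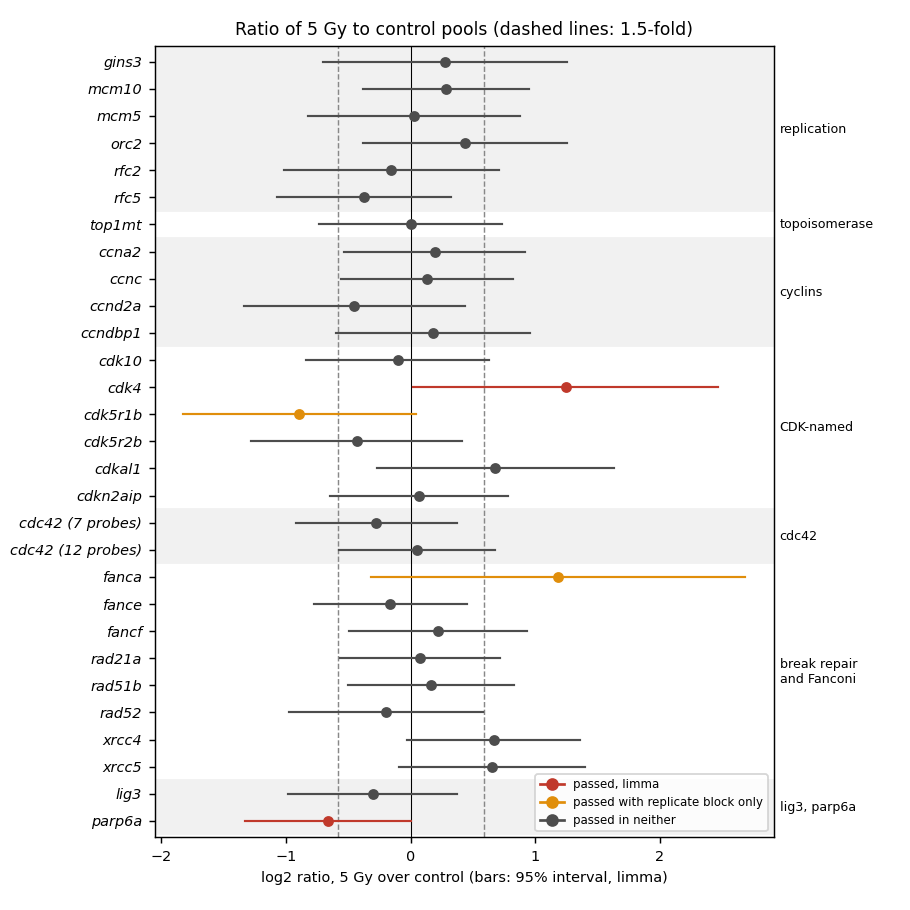
Log2 ratio of 5 Gy over control pools for each of the 29 targets (points) with the 95% limma interval (bars), 3 pools per group, grouped by role; dashed lines mark 1.5-fold. Only cdk4 (1.24) and parp6a (-0.66) passed without the block, and fanca (1.18) and cdk5r1b (-0.89) passed with the replicate block only.

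Genes that license and drive the replication fork gave 0 calls among 6 targets, against 4.04% of all targets. Their log2 ratios ran from -0.38 for rfc5 to 0.43 for orc2, with a median of 0.15. The gene orc2 encodes a subunit of the origin recognition complex, and its log2 values were 8.71, 9.14 and 9.56 in control replicates 1, 2 and 3 and 10.09, 9.45 and 9.19 in 5 Gy replicates 1, 2 and 3. The groups overlapped, with 5 Gy replicate 1 the highest pool and control replicate 1 the lowest, and the log2 ratio of 0.43 had a standard error of 0.355 (95% interval -0.38 to 1.25, limma adjusted p = 0.905). For rfc5, a subunit of the clamp loader that places PCNA on DNA, the values were 11.29, 11.52 and 11.02 in the control pools and 11.30, 10.68 and 10.72 in the 5 Gy pools. Here 5 Gy replicates 2 and 3 lay below every control pool and 5 Gy replicate 1 lay between control replicates 1 and 2, which left a log2 ratio of -0.38 with a 95% interval of -1.07 to 0.32. The other clamp loader subunit measured, rfc2, had a log2 ratio of -0.16 and its highest value in control replicate 1.

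The remaining fork genes were marked by a single irradiated pool. The gene gins3 encodes a subunit of the GINS complex that activates the MCM helicase, and its log2 values were 8.84, 8.92 and 8.67 in the control pools and 10.06, 8.67 and 8.53 in the 5 Gy pools. Only 5 Gy replicate 1 lay above the controls, by 1.22 over control replicate 1, and 5 Gy replicates 2 and 3 lay near or below the lowest control. The helicase subunit gene mcm5 had 11.23, 10.94 and 10.99 in the controls and 11.83, 10.60 and 10.81 after 5 Gy. Its 5 Gy replicate 1 was again the highest of the 6 pools and 5 Gy replicate 2 the lowest, so that the log2 ratio of 0.03 carried an interval of -0.82 to 0.87. The replication initiation factor gene mcm10 had 7.56, 7.80 and 7.65 in the controls and 8.35, 7.79 and 7.72 after 5 Gy, with 5 Gy replicate 1 above the other 5 pools. Leaving out 5 Gy replicate 1 turned the direction of gins3 (-0.21) and mcm5 (-0.35), and neither had passed the test with it. The mitochondrial topoisomerase gene top1mt, which relaxes mitochondrial DNA, had a log2 ratio of 0.00 with an interval of -0.73 to 0.73, and it too was highest in 5 Gy replicate 1.

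That pool was the highest of the 6 for many of these genes. Of the 29 targets, 14 had their highest value in 5 Gy replicate 1 (48.3%), compared with 31.9% of the targets with a symbol and 22.7% of all targets. Among the 6 fork targets it was the highest pool for 4, and over all 6 its median deviation from a target's own mean was 0.63. Control replicate 3 was the highest pool for 8 (27.6%) and 5 Gy replicate 3 for 0. The lowest value fell in 5 Gy replicate 2 for 11 of the 29 (37.9%), against 27.5% of all targets. The irradiated pools differed among themselves. The median differences between pools with the same number were 0.39, -0.25 and -0.18 for numbers 1, 2 and 3. Of the 29 targets, 22, 12 and 9 had a difference above 0 in these pairs, which is 75.9%, 41.4% and 31.0%, compared with 63.2%, 44.9% and 44.8% of the targets with a symbol and 51.5%, 41.9% and 50.2% of all targets.

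**Figure D2:**
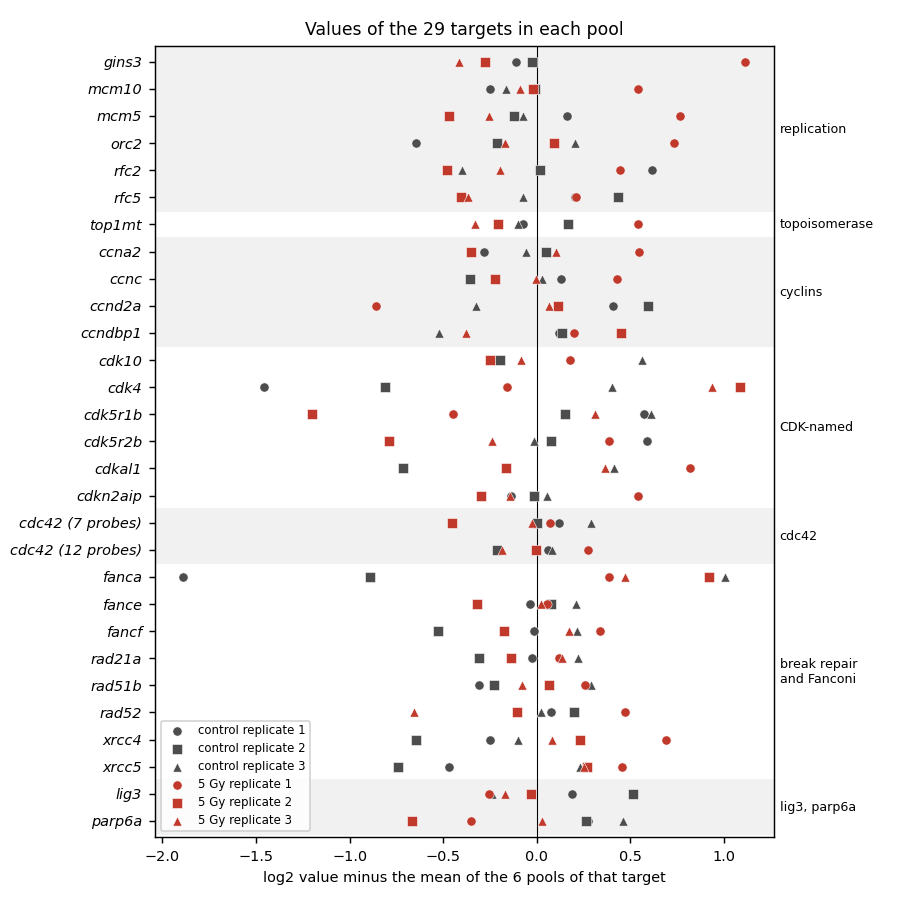
Log2 value of each of the 29 targets in each pool minus the mean of its 6 pools; grey symbols are control pools, red symbols 5 Gy pools, and the shape gives the replicate number. The red circles of 5 Gy replicate 1 lie farthest right for 14 targets, while the red squares of 5 Gy replicate 2 lie farthest left for 11.

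**Figure D3:**
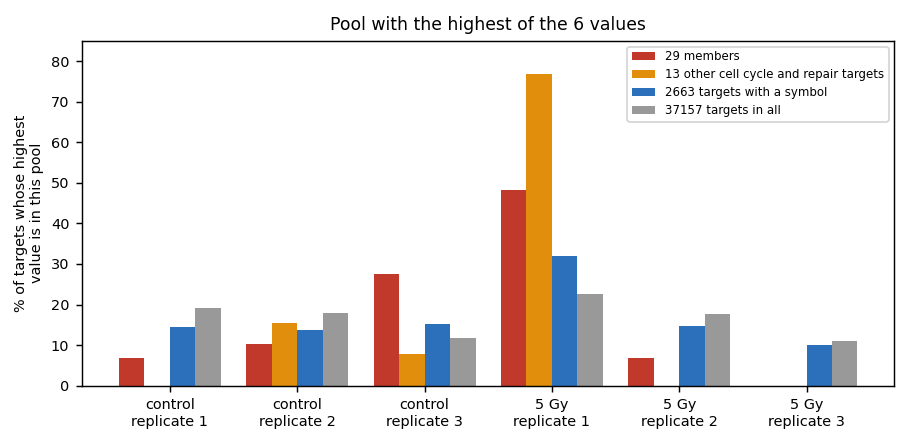
Share of targets (%) whose highest log2 value among the 6 pools is in the pool named on the horizontal axis, for the 29 targets, 13 other cell cycle and repair targets, the 2663 targets with a symbol and all 37157 targets. The bar for 5 Gy replicate 1 reaches 48.3% for the 29 targets and 76.9% for the 13 others. It reaches 31.9% for the targets with a symbol and 22.7% for all targets.

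The 4 cyclin-named targets gave 0 calls, against 4.04% of all targets, with log2 ratios from -0.45 to 0.19. The gene ccnd2a encodes a D-type cyclin that drives cells out of G1, and its log2 values were 10.97, 11.16 and 10.24 in the control pools and 9.70, 10.67 and 10.62 in the 5 Gy pools. The lowest pool was 5 Gy replicate 1, and the other irradiated pools lay between control replicate 3 and the other controls. The difference in ccnd2a of -0.45 (SE 0.386, interval -1.34 to 0.43) had 11 of 12 probes lower, and its sign differed among the pairs, with -1.26, -0.48 and 0.39. For ccna2, the cyclin of S phase and of entry into mitosis, the values were 11.36, 11.70 and 11.59 in the controls and 12.19, 11.29 and 11.75 after 5 Gy. Its highest pool was 5 Gy replicate 1 and its lowest 5 Gy replicate 2, with all controls between them and a log2 ratio of 0.19 (interval -0.53 to 0.92). The gene ccnc, whose cyclin belongs to the kinase module of the Mediator complex, and ccndbp1, which encodes a protein that binds D-type cyclins, had log2 ratios of 0.13 and 0.18.

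The kinase partner of the D-type cyclins was the member called higher. The log2 values of cdk4 were 6.44, 7.08 and 8.30 in control replicates 1, 2 and 3 and 7.73, 8.98 and 8.83 in 5 Gy replicates 1, 2 and 3. Control replicates 1 and 2 were the lowest pools, 5 Gy replicates 2 and 3 the highest, and control replicate 3 lay above 5 Gy replicate 1, so the groups overlapped. Means were 7.27 ± 0.94 in the controls and 8.51 ± 0.68 after 5 Gy (SD, 3 pools), and the log2 ratio of 1.24 had a standard error of 0.531 (limma adjusted p = 0.905). The interval reached from 0.02 to 2.46, and the two-sided exact permutation p was 0.2. All 12 probes of cdk4 were higher, by 0.65 to 2.32, and all 3 pairs were higher, by 1.30, 1.90 and 0.53. With the replicate block the standard error of cdk4 was 0.344 and it passed as well (adjusted p = 0.567).

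The call for cdk4 depended on the pools used. It was lost without control replicate 1 (log2 ratio 0.82), control replicate 2 (1.15), 5 Gy replicate 2 (1.01) or 5 Gy replicate 3 (1.09), and it was kept without control replicate 3 (1.75) or 5 Gy replicate 1 (1.63). It was lost too with the mean of the probes in place of median polish (1.23, SE 0.553), and the t-test of the methods did not call cdk4. Of the 5 skeletal muscle markers measured 2 were higher and 0 lower, with a median log2 ratio of 0.67. Their summed intensity lay between 46519 and 53847 in the controls and between 54801 and 64433 after 5 Gy. Their mean log2 values were 12.04, 12.16 and 12.33 in the controls and 12.59, 12.81 and 12.54 after 5 Gy. The highest pool was 5 Gy replicate 2, as for cdk4. Control replicate 3 lay below every irradiated pool in these markers but above 5 Gy replicate 1 in cdk4. Of the 7 lens markers 3 were higher and 0 lower, with a median log2 ratio of 0.07, a summed intensity of 105020 to 112850 in the controls and 100210 to 122510 after 5 Gy, and mean log2 values of 12.47, 12.34 and 12.54 in the controls and 12.74, 13.19 and 12.91 after 5 Gy. The muscle list holds smyd1b and pygma, and the study lists SMYD1 and PYGM among its altered genes, selected on these same pools. The direction of these markers here is no independent evidence. The part of both lists in the result was not tested.

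Of the other targets with a cdk symbol, those for the neuronal activators of Cdk5 lay lower. The gene cdk5r1b encodes p35, which activates Cdk5 in neurons that no longer divide, and its log2 values were 10.09, 9.67 and 10.12 in the controls and 9.06, 8.31 and 9.82 after 5 Gy. The 5 Gy replicates 1 and 2 lay below every control, and 5 Gy replicate 3 lay between control replicate 2 and the other controls. The log2 ratio of -0.89 (SE 0.407, interval -1.83 to 0.04) did not pass, and with the replicate block, where the standard error was 0.323, it did (adjusted p = 0.567). The probes of cdk5r1b split, with 9 lower, down to -1.38, and 3 higher, by 0.58 to 1.30, all 3 next to each other in identifier order. Without 5 Gy replicate 3 the log2 ratio of cdk5r1b was -1.27 and passed, and without 5 Gy replicate 2 it was -0.51 and did not pass. With the mean of the probes it was -0.52.

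The related gene cdk5r2b, for the p39 activator, had 9.53, 9.01 and 8.92 in the controls and 9.32, 8.15 and 8.70 after 5 Gy. All 12 of its probes and all 3 pairs were lower, yet the groups overlapped and the log2 ratio of -0.43 (interval -1.28 to 0.41) did not pass. Leaving out 5 Gy replicate 2 gave -0.14, control replicate 1 gave -0.25 and 5 Gy replicate 1 gave -0.73. Of the 3 neuron markers measured (slc17a6a, slc17a6b, syn2a) 1 was lower and 0 higher, with a median log2 ratio of -0.85. Their mean log2 values were 10.36, 10.22 and 10.69 in the controls and 9.71, 8.85 and 10.31 after 5 Gy. Their summed intensity ran from 4208 to 5556 in the controls and from 1467 to 4537 after 5 Gy. The markers ranked the 6 pools in the same order as cdk5r1b. For cdk5r2b the order differed: control replicate 3 was its lowest control but the highest pool for the markers. Its 5 Gy replicate 1 lay above control replicates 2 and 3, while in that pool the markers lay below every control. The lowest pool was 5 Gy replicate 2 for the neuron markers, cdk5r1b and cdk5r2b alike, as for 27.5% of all targets. The study lists SLC17A6 among its altered genes, selected on these same pools, so the direction of these neuron markers is no independent evidence. The part of the markers in the result was not tested.

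The gene cdkal1 was taken by its symbol but encodes a tRNA-modifying enzyme rather than a kinase of the cell cycle. Its log2 values were 10.17, 10.17 and 11.30 in the controls and 11.70, 10.72 and 11.25 after 5 Gy. All irradiated pools lay above control replicates 1 and 2, which had nearly the same value, but control replicate 3 lay above 5 Gy replicates 2 and 3. The log2 ratio of 0.68 (interval -0.27 to 1.63) had 12 of 12 probes higher. Without control replicate 3 it was 1.06 and passed, as did 19.2% of all targets. Without 5 Gy replicate 1 it was 0.44 and did not pass. The kinase gene cdk10 and cdkn2aip, whose protein binds a p53 regulator, had log2 ratios of -0.10 and 0.07. For cdk10 control replicate 3 was the highest pool, 0.77 above the mean of the other controls. Without that pool the log2 ratio of cdk10 was 0.15, and without both pools numbered 3 it was 0.17.

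The gene cdc42 encodes a small GTPase that sets cell polarity and the actin skeleton, and it was measured by 2 targets. The target with 7 probes had log2 values of 12.46, 12.35 and 12.63 in the controls and 12.41, 11.89 and 12.31 after 5 Gy, and the target with 12 probes had 11.21, 10.94 and 11.23 in the controls and 11.43, 11.15 and 10.97 after 5 Gy. Their log2 ratios were -0.27 and 0.05, a difference of -0.32 between targets for the same gene, and neither passed.

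**Figure D4:**
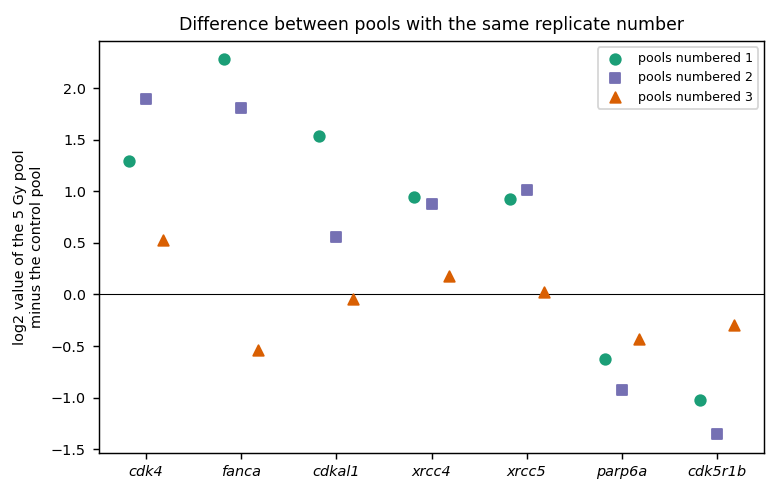
Log2 value of the 5 Gy pool minus that of the control pool with the same replicate number (vertical axis), for the 7 genes whose mean difference reached 1.5-fold; each symbol is 1 pair of pools. The pair numbered 3 lies nearest to 0 for all 7 genes, and for fanca (-0.53) and cdkal1 (-0.05) it lies on the other side of 0 from the other pairs. The pools numbered 3 were the most alike of the same-numbered pairs over all targets too (r = 0.987, against 0.925 and 0.902 for numbers 1 and 2).

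The 8 targets for repair of DNA breaks and for the Fanconi pathway gave 0 calls without a block, against 4.04% of all targets. Of these 8, 6 had a log2 ratio above 0, with a median of 0.19. Only the end joining genes xrcc4 and xrcc5 had groups that did not overlap, 25% of the 8, against 7.49% of all targets. The gene xrcc4 encodes the partner of DNA ligase IV, and its log2 values from 6 probes were 9.27, 8.88 and 9.42 in the controls and 10.21, 9.75 and 9.60 after 5 Gy. Every irradiated pool lay above every control, with the smallest step between control replicate 3 and 5 Gy replicate 3. Means were 9.19 ± 0.28 and 9.86 ± 0.32 (SD, 3 pools), the log2 ratio was 0.67 (SE 0.302, interval -0.03 to 1.36, limma adjusted p = 0.905), and all 6 probes were higher, by 0.16 to 1.05. The two-sided exact permutation p for xrcc4 was 0.1, the smallest that 3 pools against 3 allow. The study also lists xrcc4 among its altered genes, selected on these same pools, so its direction here is no independent evidence.

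The gene xrcc5 encodes Ku80, which with Ku70 caps the ends of broken DNA. Its log2 values were 7.73, 7.46 and 8.43 in the controls and 8.66, 8.47 and 8.46 after 5 Gy. The irradiated pools lay within a narrow range above all controls, but only 0.02 separated control replicate 3 from 5 Gy replicate 3. The log2 ratio of 0.65 (SE 0.324, interval -0.09 to 1.40) had 11 of 12 probes higher. Without control replicate 3 both end joining genes passed, with log2 ratios of 0.78 for xrcc4 and 0.93 for xrcc5, but so did 19.2% of all targets. Leaving out both pools numbered 3 gave 0.91 and 0.97, in a setting where 15% of all targets passed.

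Among the Fanconi genes, which encode subunits of the core complex that marks FANCD2 with ubiquitin, fanca had the widest range over the 6 pools of all 29 targets, 2.89. Its log2 values were 6.62, 7.62 and 9.52 in the controls and 8.90, 9.43 and 8.98 after 5 Gy. The value of control replicate 1 lay below 6.97, the limit of the dimmest 25% of targets by their mean over the pools. The irradiated pools lay closer together than the controls, and the controls held both the lowest value and, in replicate 3, the highest of all 6. The log2 ratio of 1.18 had a standard error of 0.653 (interval -0.32 to 2.68), with 11 of 12 probes higher. With the replicate block fanca passed (SE 0.503, adjusted p = 0.567), and its pairs differed by 2.28, 1.81 and -0.53. Without control replicate 3, where 19.2% of all targets passed, its log2 ratio was 1.98 (limma adjusted p = 0.0543). Without control replicate 1 it was 0.53 and did not pass. Control replicate 3 lay 2.39 above the mean of the other controls. The core complex genes fancf and fance had log2 ratios of 0.22 and -0.16, and fance was the 1 target of the 29 in the dimmest 25% of the array.

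**Figure D5:**
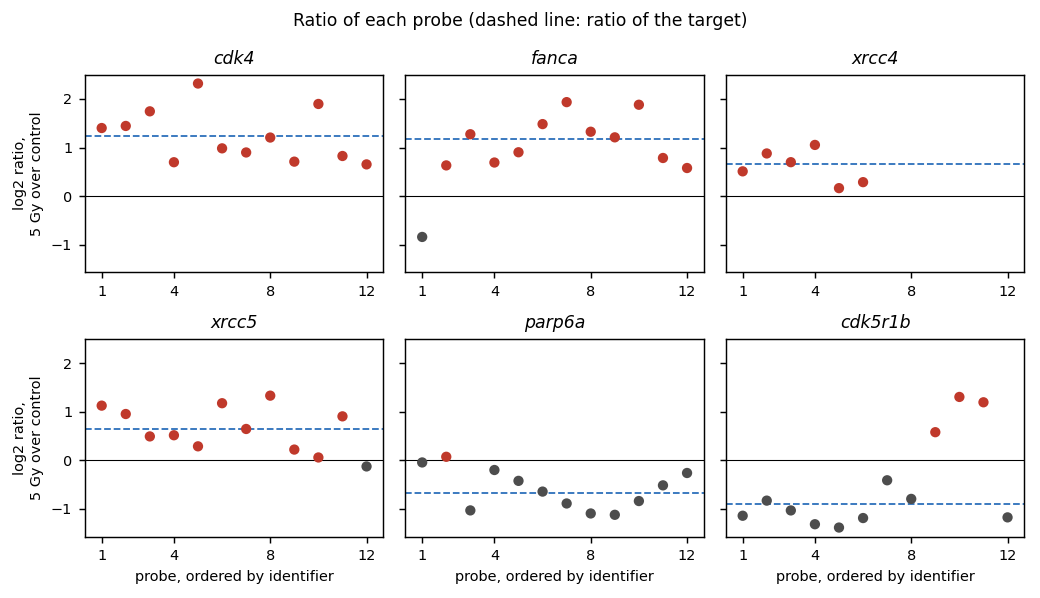
Log2 ratio of 5 Gy over control (means of 3 pools) for each probe of 6 targets, in order of probe identifier; the dashed line is the ratio of the target. All 12 probes of cdk4 and all 6 of xrcc4 lie above 0, 11 of 12 for parp6a lie below, and 3 neighbouring probes of cdk5r1b lie above 0 while its other 9 lie below.

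The homologous recombination genes gave small differences. The gene rad51b encodes a recombination factor, and its log2 values were 7.27, 7.35 and 7.87 in the controls and 7.84, 7.65 and 7.50 after 5 Gy, a log2 ratio of 0.16 with overlapping groups. For rad52, whose protein anneals single strands, the values from 7 probes were 8.84, 8.97 and 8.79 in the controls and 9.24, 8.66 and 8.11 after 5 Gy, and the log2 ratio was -0.20 (interval -0.97 to 0.58). Irradiated pools gave both the highest and the lowest value of rad52. The cohesin gene rad21a, whose protein holds sister chromatids together, had a log2 ratio of 0.08 with a standard error of 0.278. Control replicate 3 lay above both other controls in 7 of these 8 repair and Fanconi targets. Over all 29 it lay above both in 16 and below both in 9. Among the 2663 targets with a symbol these counts were 1162 and 1080, and over the array they were 13214 and 17662.

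The last group held the member called lower. The gene parp6a encodes a mono-ADP-ribosyltransferase of the PARP family, and its log2 values were 8.76, 8.75 and 8.95 in the controls and 8.13, 7.82 and 8.51 after 5 Gy. Every irradiated pool lay below every control, with 5 Gy replicate 2 the lowest and 5 Gy replicate 3 the closest to the controls. Means were 8.82 ± 0.11 and 8.16 ± 0.35 (SD, 3 pools), and the log2 ratio of -0.66 (SE 0.289) had an interval of -1.33 to -0.00 and a limma adjusted p of 0.905, while the exact permutation p was 0.1. The ratio was below 0 in 11 of 12 probes and in all 3 pairs, by -0.63, -0.93 and -0.43.

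The interval of parp6a ended next to 0, and its call was lost in all alternatives run except the t-test of the methods and leaving out 5 Gy replicate 3. With the replicate block it did not pass (SE 0.296, adjusted p = 0.569). Leaving out control replicate 1 (log2 ratio -0.69), control replicate 2 (-0.70), control replicate 3 (-0.60), 5 Gy replicate 1 (-0.65) or 5 Gy replicate 2 (-0.50) also ended the call, and without 5 Gy replicate 3 it was kept at -0.84. Like cdk5r1b, cdk5r2b and the neuron markers, parp6a was lowest in 5 Gy replicate 2, and the part of the markers in this result was not tested. The study lists this parp6a target among its altered probes, selected on these same pools, so its direction here is no independent evidence. The study's altered genes include another target under the human name PARP6, whose log2 values were 9.70, 9.60 and 10.07 in the controls and 9.14, 8.77 and 9.39 after 5 Gy. This target did not overlap between groups either, with a log2 ratio of -0.69 (SE 0.296, limma adjusted p = 0.905) and 11 of 12 probes lower, and since it was selected on these pools it is no independent evidence. For lig3, a ligase that seals single-strand nicks in the nucleus and in mitochondria, the values were 9.34, 9.67 and 8.91 in the controls and 8.90, 9.12 and 8.99 after 5 Gy, with overlapping groups and a log2 ratio of -0.30 (interval -0.98 to 0.37).

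A list of 184 other cell cycle, replication and repair genes gave 13 targets that carried a zebrafish symbol. Genes of the list measured only on targets without a symbol, such as usp28, slbp, trip13 and chtf18, are not counted here. Their targets, named by the study, are described under the other observations, and of these USP28 alone was called in limma, higher. Of the 13 targets with a symbol 0 passed in limma with or without the block, against 4.04% of all targets without it and 8.81% with it. At an unadjusted p under 0.05 the count was also 0, and their log2 ratios ran from -0.34 to 0.54 with a median of 0.13. The groups did not overlap in 1 (7.69%, against 7.49% of all targets), ube2c, which encodes the ubiquitin-conjugating enzyme that works with the anaphase-promoting complex to end mitosis. The log2 values of ube2c were 10.82, 10.89 and 10.91 in the controls and 11.56, 11.10 and 11.16 after 5 Gy. The 3 controls lay close together and 5 Gy replicate 1 stood above the other irradiated pools, giving a log2 ratio of 0.40 (SE 0.270, interval -0.22 to 1.02) with 12 of 12 probes higher. The end values were those of pkmyt1 (-0.34), the kinase that holds Cdk1 inactive, and cenpl (0.54), a centromere protein gene with 7.71, 7.70 and 7.86 in the controls and 8.67, 8.43 and 7.79 after 5 Gy. The histone chaperone gene chaf1a, which loads histones behind the fork, had a log2 ratio of 0.50, with control replicate 3 (10.27) among the irradiated pools (10.29, 9.77 and 10.09) and above control replicates 1 and 2. The 9 other targets, babam1, mad2l2, dtymk, lin54, tp53bp1, e2f3, ercc4, cpdp and foxm1, had log2 ratios between -0.24 and 0.43. The highest pool was 5 Gy replicate 1 for 10 of the 13 (76.9%). The same held for 31.9% of the targets with a symbol and 22.7% of all targets.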

How the data were processed

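RNA of 6 whole-larva pools was measured on one-colour NimbleGen arrays. The authors read the scans with NimbleScan and applied quantile normalization, and each deposited value is the linear intensity of a single probe. The submitters' processing notes name RMA with no version. Background treatment is not given in the sources used here. Probe intensities were put on a log2 scale here and combined per target by median polish (tolerance 0.01, at most 10 iterations), since the deposited values are neither log2 nor combined. The comparison used limma 3.58.1 (lmFit, eBayes) in R 4.3.3 without covariates, over all 37157 targets, with Benjamini-Hochberg adjustment. Tables were made with Python 3.11.15, pandas 2.3.3, numpy 2.4.6 and scipy 1.17.1. The scripts were tested on simulated data.

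After removal of group means, control and 5 Gy pools of the same number correlated at 0.150, 0.239 and 0.497, each over 0.1. Pools of unlike number correlated between -0.408 and 0.166, with the highest value for control replicate 1 and 5 Gy replicate 2. The pairing was not established, and values with the replicate number as a block are given where they change a call. Symbols came from RefSeq mRNA identifiers, of which 2663 of 3055 matched. Members and lists were chosen with earlier results of these data known. Genes named are all members called with or without the block, the 2 with the smallest p per role group, and a list of well known cell cycle genes, and other members were named after their values were seen. The alternatives were the replicate block, median centring, the mean of probes, leaving out the dimmest 25% of targets, the t-test of the methods and leaving out each pool in turn. One gene that the symbol rule would take is not reported here.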

Additional observations from a re-analysis of the deposited data

How the results depend on the processing

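The number of arrays limits these results: with 3 pools per group, leaving out any of several single pools ended the call of cdk4 or parp6a. A fit without 1 pool also has fewer arrays, so a lost call does not single out that pool. Over all targets 1500 were called. The replicate block gave 3272, median centring 1449, the mean of probes 1434 and the t-test of the methods 569. Leaving out 1 pool gave 308 to 7126, with the highest count without control replicate 3. Of the 29 cell cycle and repair targets 2 were called. This was 0 with the mean of probes, 1 without the dimmest 25% of targets, 1 with the t-test of the methods, and 0 to 5 when 1 pool was left out: 5 without control replicate 3, 2 without 5 Gy replicate 3, 1 without 5 Gy replicate 1, and 0 without any of the others. Without both pools numbered 3, a setting chosen after seeing the data, 5560 targets and 6 of the 29 were called (cdk4, cdkal1, fanca, xrcc4 and xrcc5 higher, cdk5r1b lower). The replicate block gave 3 of the 29 and median centring 2. The median log2 ratio of the 29 targets, 0.07, lay between -0.14 and 0.16 when 1 pool was left out.

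No gene that passed in the fit without a block changed sign. Of 347 log2 ratios over all members and alternatives, 293 kept their direction and their side of the threshold, 16 lost a call, 13 gained one and 25 changed sign, in 13 targets. The count of 293 is no measure of stability. The replicate block, the t-test and leaving out the dimmest 25% of targets leave a log2 ratio as it is, so no sign could change there. Median centring moves all targets by the same amount, and a target without a call had none to lose. With the mean of probes cdk10 was at 0.067, fance at 0.0014, rad52 at 0.24 and mcm5 at -0.0035, and without both pools numbered 3 cdk10 was at 0.17 and rad52 at 0.045. When 1 pool was left out, the lowest and highest log2 ratios were -0.071 and 0.16 for the cdc42 target with 12 probes, -0.24 and 0.15 for cdk10, -0.19 and 0.23 for cdkn2aip, -0.029 and 0.42 for ccna2, -0.047 and 0.28 for ccnc, -0.036 and 0.42 for ccndbp1, -0.060 and 0.20 for rad21a, -0.48 and 0.084 for rad52, -0.21 and 0.56 for gins3, -0.35 and 0.27 for mcm5, -0.42 and 0.11 for rfc2, and -0.27 and 0.17 for top1mt. The cause was not tested. For rad52, 1 of 7 probes had a log2 ratio of 2.15, and the others lay between -0.55 and 0.47.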

Other observations

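The study names further cell cycle and repair genes by their human symbols, on targets that the symbol rule does not reach. They were selected by the study on these same pools, so their values are a description and no independent evidence. Of the 8 looked up, 3 were called higher in limma (CCNF, CCNG1 and USP28) and PARP6 lower, while BIRC5, SLBP, TRIP13 and CHTF18 did not pass. The study selected its genes with a t-test, and the t-test of the methods called all 8 here as well. In all 8 the groups did not overlap, against 7.49% of all targets. The log2 values of CCNF, an F-box protein gene whose product marks replication proteins for removal in G2, were 7.82, 7.97 and 7.30 in the controls and 9.02, 8.48 and 8.22 after 5 Gy. All 12 of its probes were higher, with a log2 ratio of 0.88 (SE 0.330, limma adjusted p = 0.905), and it passed with the replicate block too. For CCNG1, cyclin G1, a target of p53, the values were 13.06, 13.20 and 13.58 in the controls and 13.81, 13.90 and 14.08 after 5 Gy, a log2 ratio of 0.65 (SE 0.277, interval 0.01 to 1.28) with all 12 probes higher. The pools of CCNG1 were the closest among these 8 genes after irradiation, and its highest pool was 5 Gy replicate 3, whereas CCNF was highest in 5 Gy replicate 1. USP28, a deubiquitinase of the damage response, had 9.17, 9.40 and 9.68 in the controls and 10.38, 9.98 and 9.95 after 5 Gy, a log2 ratio of 0.69. With the replicate block USP28 and CCNG1 did not pass (standard errors 0.316 and 0.290).

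Among those that did not pass in limma, BIRC5, the survivin gene of dividing cells, had log2 values of 7.53, 7.70 and 7.51 in the controls and 8.62, 7.92 and 8.19 after 5 Gy. Its log2 ratio was 0.66 (interval -0.00 to 1.33). SLBP, which binds histone mRNA in S phase, had a log2 ratio of 0.69, and its pools numbered 3 differed by 0.01. TRIP13, an ATPase of the spindle checkpoint, had a log2 ratio of 0.62. The clamp loader gene CHTF18 went the other way, with 7.96, 8.19 and 8.22 in the controls and 7.79, 7.33 and 7.48 after 5 Gy, a log2 ratio of -0.59 (interval -1.21 to 0.03), and 9 of its 12 probes were lower.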
